A study of Mus musculus with 12 samples.

Results

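The 78 genes described here encode mitochondrial ribosomal proteins. They were chosen by symbol alone, as every gene of the count table whose symbol starts with Mrpl or Mrps followed by a digit, and they are 78 of 24100 genes. The libraries came from primary cultures of mouse entorhinal cortex prepared from embryonic day 17 embryos and transduced at day 7 in vitro with adeno-associated virus serotype 1 (AAV1) at 1e+10 viral genomes per ml, and bulk RNA was sequenced 4 days later. The 4 groups had 3 libraries each. Dek-silenced cultures received AAV1-mCherry-U6-mDEK-shRNA, which drives a small hairpin RNA against mouse Dek from the U6 promoter, and scrambled cultures received AAV1-mCherry-U6-scrmb-shRNA, which carries a control hairpin. Dek-overexpressing cultures received AAV1-hSyn1-mDEK-IRES-mCherry, which carries a mouse Dek cDNA behind the neuronal human synapsin promoter, and empty vector cultures received AAV1-hSyn1-mCherry-WPRE. All 4 viruses express mCherry. The U6 promoter is active in all cell types, whereas the synapsin promoter is active mainly in neurons, and the silencing arm rests on 1 hairpin. The labels do not say whether libraries of a group came from separate dissections, so that the tests measure the spread between these libraries, which may be technical.

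Mitochondria keep their own ribosome, the mitoribosome, which translates the few mRNAs of the mitochondrial genome into core subunits of the respiratory chain and the ATP synthase. It has a small subunit, which holds the mRNA and the decoding site, and a large subunit, which joins the amino acids and opens onto the inner membrane. All of its proteins are encoded in the nucleus, made in the cytosol and imported, and they fall into proteins with a counterpart in bacterial ribosomes and proteins found only in mitochondria; neurons depend on this machinery for oxidative phosphorylation at distant synapses. DEK, the targeted protein, is a nuclear factor that binds chromatin.

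Of the 78 genes, 26 encode proteins of the small subunit and 51 proteins of the large subunit. Mrps30 and Mrps18a are counted with the large subunit, where their proteins (mL65 and mL66) sit in spite of their names. Mrps36 carries a family symbol, but its protein belongs to the alpha-ketoglutarate dehydrogenase complex. By the names of their proteins in the ribosome nomenclature, 46 members were classed as having a bacterial counterpart and 31 as specific to mitochondria. This classing follows the name alone. It puts Mrps18a and Mrps18b (mL66 and mS40) with the mitochondria-specific proteins but Mrps18c (bS18m) with the bacterial counterparts. The genes lie on 17 chromosomes, and their representative transcripts are short, with a median of 1302 bases (range 418 to 7300), against 2686.5 bases over the 21166 genes with a transcript in the annotation (GENCODE vM21, build GRCm38). Median GC content was 50.01%, against 49.23% over those genes. Exons of 21 members overlap exons of another gene, and 23 members have a neighbouring gene that starts within 1 kb on the other strand and points away. Since the library kit is not stated to keep the strand, reads of overlapping genes cannot be told apart.

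The 12 libraries held 15679567 to 18933382 estimated counts. Dek itself followed the labels, with 7.98, 6.65 and 8.62 CPM in Dek-silenced libraries against 35.2, 36.6 and 36.4 CPM in scrambled libraries (log2 fold change (log2FC) = −2.23, SE 0.10, edgeR false discovery rate (FDR) = 1.31e-08), and 156, 129 and 143 CPM in Dek-overexpressing libraries against 36.04, 38.8 and 41.1 CPM in empty vector libraries (log2FC = 1.89, SE 0.078, edgeR FDR = 1.36e-08). Here and below, CPM are normalised read counts, scaled to the library total with TMM factors over all libraries (counts per 1000000). Neuronal markers were abundant in every library (Map2 863 to 1446 CPM, Syt1 1177 to 1489 CPM). Endothelial and microglial markers were low, with sums of 0.87 to 2.62 CPM over 4 endothelial and 3.54 to 12.7 CPM over 6 microglial markers. Among them, Cldn5 (endothelial) was at 0 in 9 libraries and P2ry12 (microglial) at 0 in 6. Microglial markers summed to 3.54 to 4.47 CPM in Dek-silenced libraries against 4.77 to 6.99 CPM in scrambled libraries. Of the 4 microglial markers tested, 1 was called lower. The summed level of 8 neuronal markers was 5655 to 6205 CPM in Dek-silenced libraries against 6718 to 6908 CPM in scrambled libraries, with 5 of the 8 called lower and 1 called higher. Oligodendrocyte markers summed to 82.4 to 89.8 CPM in Dek-silenced libraries against 30.8 to 41.2 CPM in scrambled libraries, with 4 of 5 called higher and 1 called lower, and oligodendrocyte precursor markers to 92.5 to 199 CPM in Dek-silenced libraries against 62.3 to 110.4 CPM in scrambled libraries, with 3 of 5 called higher. Astrocyte markers spread widely within both hairpin groups, with 273 to 545 CPM in Dek-silenced libraries against 275 to 488 CPM in scrambled libraries and 0 of 6 called. In the first library of each hairpin group the astrocyte sum was lowest (273 and 275 CPM), as was the precursor sum (92.5 and 62.3 CPM). The neuronal sum was highest in the first Dek-silenced library and lowest in the first scrambled library. The part of these cell types in the members' differences was not tested. Among the members, the second Dek-overexpressing library was the highest of its group for 65 of 78 genes and the third was the lowest for 48, and the median coefficient of variation was 9.07% in Dek-overexpressing cultures, 4.83% in empty vector cultures, 7.24% in Dek-silenced cultures and 4.04% in scrambled cultures. In bulk RNA, fewer cells of a type and less RNA per cell cannot be told apart.

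All 78 members were expressed, with a mean over the 12 libraries between 10.4 CPM (Mrps28, small subunit) and 95.8 CPM (Mrpl12, the stalk protein of the large subunit that also binds the mitochondrial RNA polymerase), and all passed the filter on low counts in every comparison. Levels were compared between genes only as CPM per kb of transcript. On that scale the members ranged between 123.7 for Mrpl20 and 6.05 for Mrpl1, although the annotated transcripts of some low members carry long 3′ ends, which lowers this value. Mrpl20 (a counterpart of bacterial L20) had 159 ± 2.13 CPM per kb in Dek-silenced cultures, 135.7 ± 1.24 in scrambled cultures, 99.5 ± 9.57 in Dek-overexpressing cultures and 100.7 ± 5.0 in empty vector cultures (SD, n = 3). Mrpl33 (a counterpart of L33) had 128 ± 5.09 CPM per kb in Dek-silenced cultures, 139 ± 6.77 in scrambled cultures, 115 ± 5.51 in Dek-overexpressing cultures and 104 ± 6.88 in empty vector cultures. In empty vector cultures these top members did not differ beyond their spread, and Mrps21 (95.7 ± 3.63 CPM per kb), Mrpl41 (91.5 ± 2.14) and Mrps18a (72.8 ± 6.76) followed. Mrps18a differed most of these between the hairpin groups, with 134 ± 4.42 CPM per kb in Dek-silenced cultures and 95.7 ± 5.76 in scrambled cultures. The 5 lowest were Mrps35, Mrpl17, Mrps30, Mrpl47 and Mrpl1, with 6.95 ± 0.254, 6.01 ± 0.0668, 6.54 ± 0.117, 6.02 ± 0.493 and 6.17 ± 0.489 CPM per kb in empty vector cultures, so that Mrps35 and Mrpl17, and Mrpl17 and Mrps30, differed by more than their SDs in that group, while Mrpl47 and Mrpl1 did not.

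**Figure D1:**
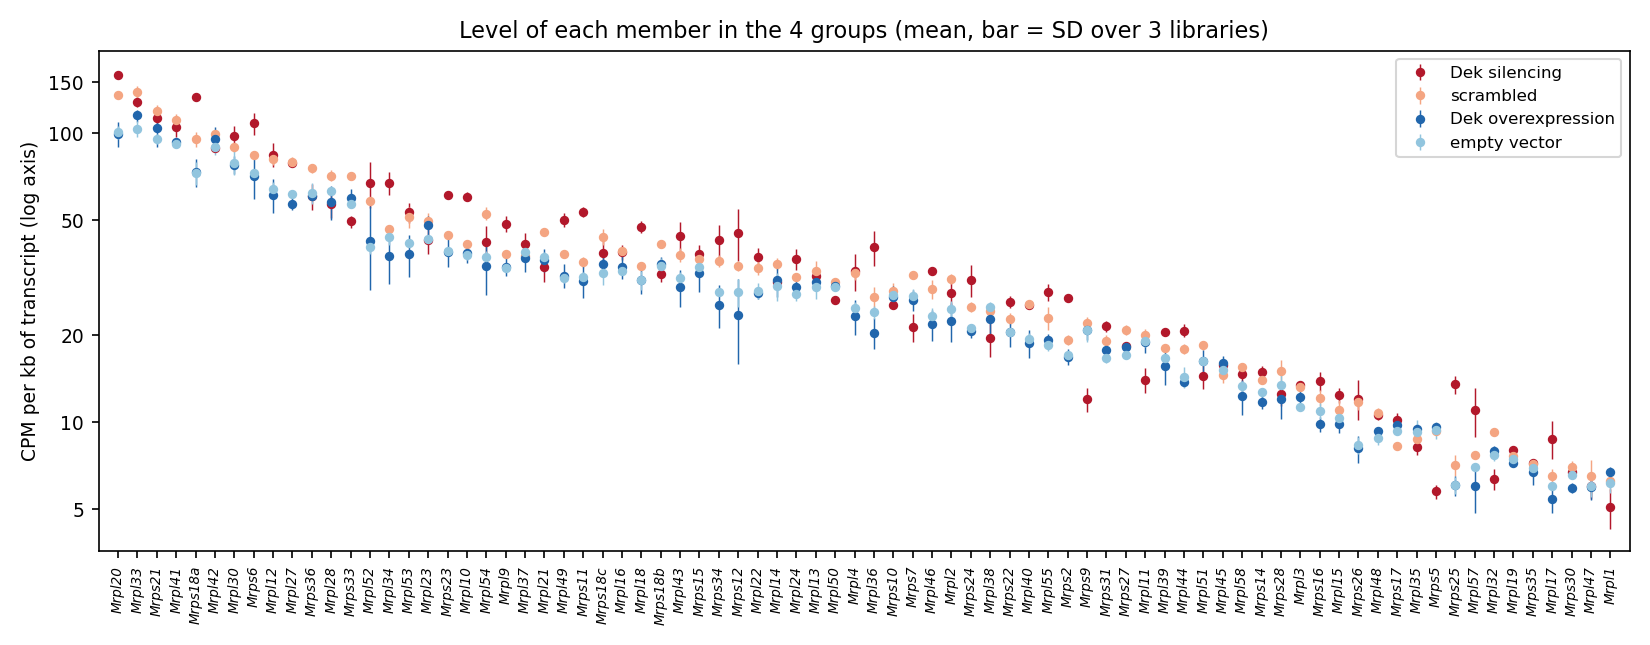
Level of each of the 78 members as CPM per kb of transcript on a log axis, with the members ordered by their mean over 12 libraries. Points are group means and bars the SD over 3 libraries, in red for Dek silencing, light orange for scrambled, dark blue for Dek overexpression and light blue for empty vector. Mrpl20 (123.7 CPM per kb on average) stands at the left and Mrpl1 (6.05) at the right, and the members span this range in all 4 groups.

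The first comparison asked what loss of Dek does to these mRNAs. Dek silencing moved many of them, in both directions: 20 of 78 members were higher than in scrambled cultures and 19 were lower (edgeR FDR below 0.05), and 39 were not called. Over all 14232 genes tested, 26.2% were called higher and 28.5% lower, so the members' shares stood close to the background. The median log2FC of the members was 0.036, beside −0.0011 over all genes, and the range ran from −0.89 (Mrps9) to 0.91 (Mrps25). All 3 Dek-silenced libraries lay above all 3 scrambled libraries for 26 members and below them for 20, against 30.8% and 31.1% of all genes tested. The split, given here without the share over all genes in the same fit, moved with the scaling and, separately, with the filter. It was 33 higher and 11 lower with library size alone, which moved the median of all genes by 0.099, and 16 and 23 once offsets for GC content and transcript length were added. With TMM kept and only genes of at least 5 CPM in 3 libraries, it was 28 and 15. Without the second Dek-silenced library, 19 were higher and 12 lower. The 16 members named next with their values kept their call in all 15 alternatives of scaling, test, filter, model and library omission, but a fold change beyond 1.5 was called only for Mrps25 upwards and for 3 members downwards.

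**Figure D2:**
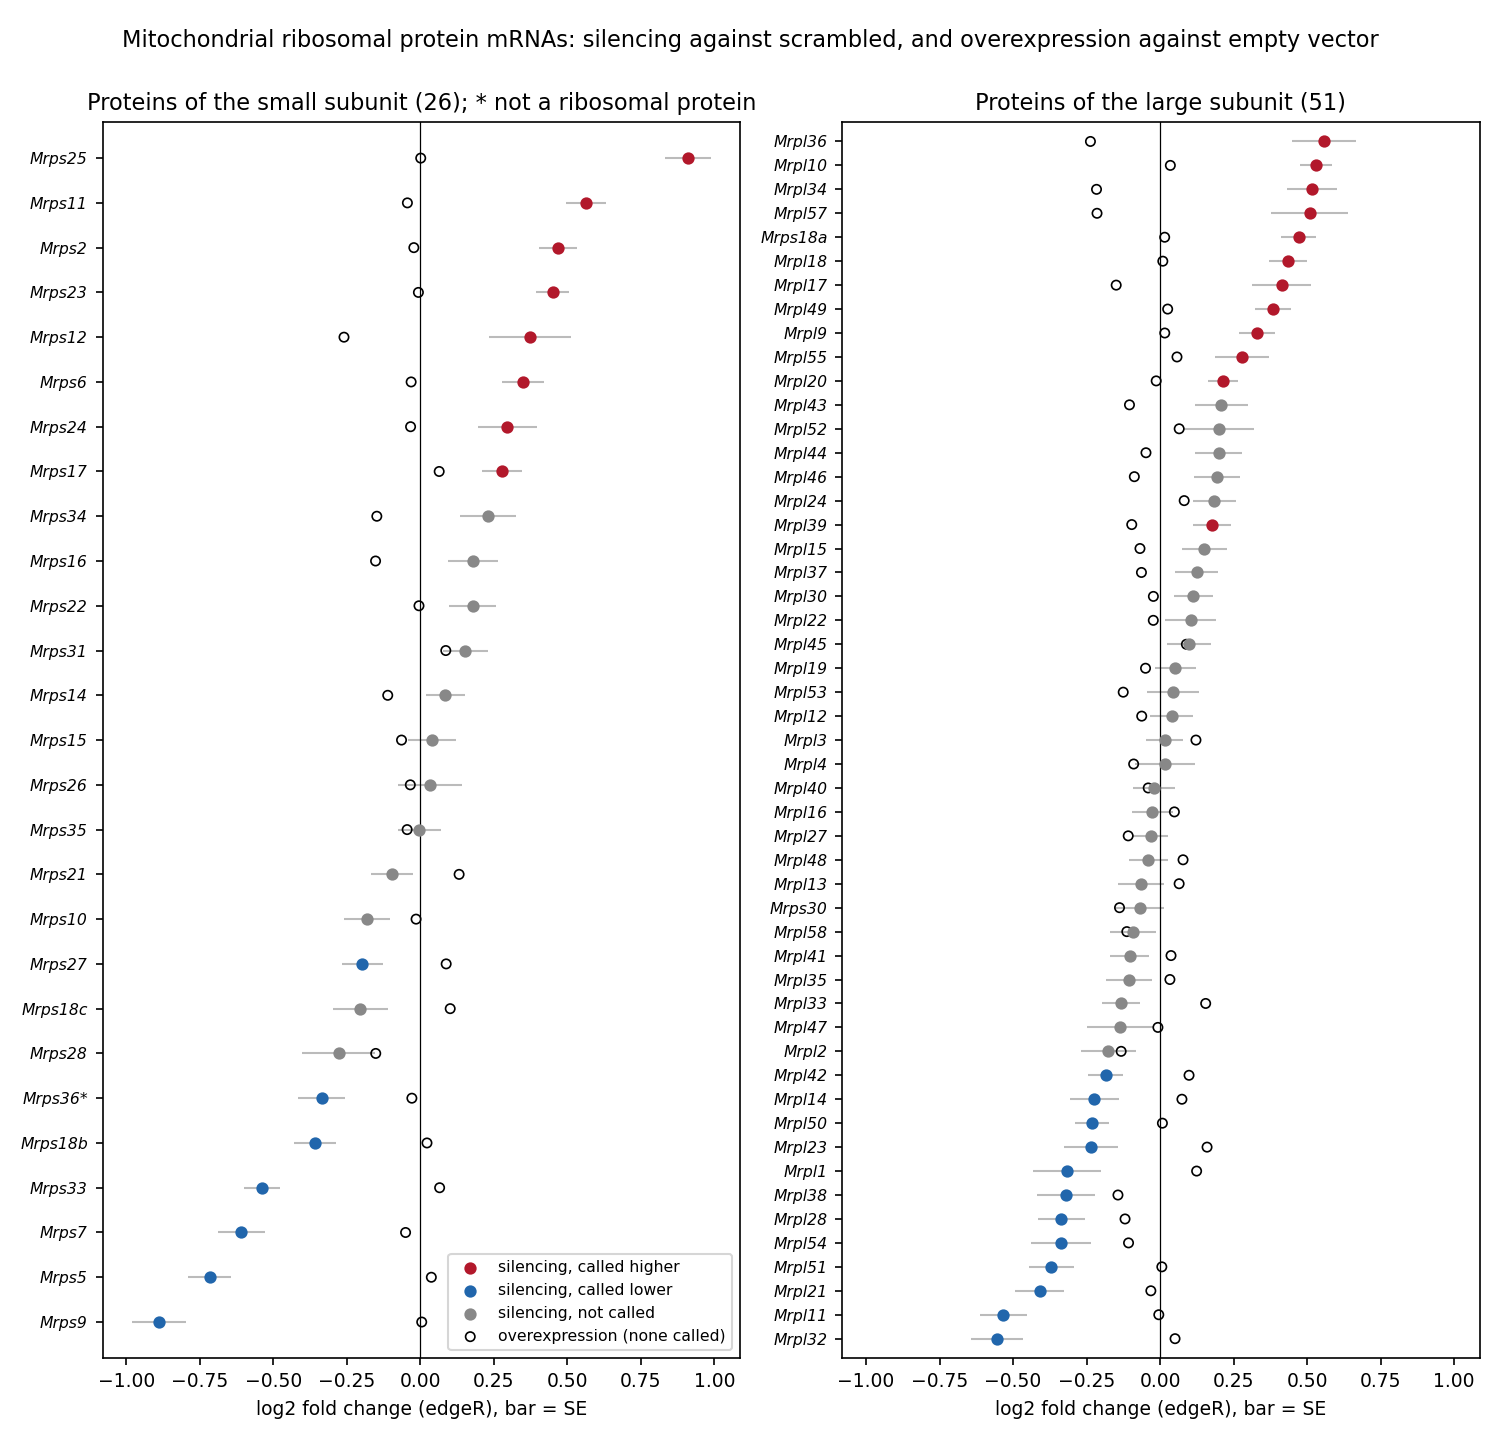
log2 fold change of each member, with the small subunit on the left (Mrps36, marked by an asterisk, is drawn there but is not a ribosomal protein) and the large subunit on the right. Filled points are Dek silencing against scrambled with the SE as a bar, in red where called higher, blue where called lower and grey where not called, and open circles are Dek overexpression against empty vector. In silencing the small subunit runs from −0.89 to 0.91 and the large subunit from −0.55 to 0.56, while the open circles stay between −0.26 and 0.16.

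Within the small subunit, 8 of 26 genes rose and 6 fell, against 26.2% and 28.5% of all genes tested, with a median log2FC of 0.062. The largest rise was that of Mrps25, a mitochondria-specific protein of the small subunit (mS25), whose gene lies on chromosome 6 from 92169525 to 92184033 on the minus strand (GRCm38). Mrps25 had 88.2, 76.5 and 81.6 CPM in Dek-silenced libraries, against 38.99, 45.8 and 44.8 CPM in scrambled libraries (log2FC = 0.91, SE 0.078, edgeR FDR = 1.38e-06). Every Dek-silenced library held well above the highest scrambled library. Mrps25 shares exonic sequence with Nr2c2 on the other strand, which fell (log2FC = −0.34, edgeR FDR = 0.00176). Mrps11 had 55, 55.1 and 59.04 CPM in Dek-silenced libraries, against 38.8, 38.7 and 35.8 CPM in scrambled libraries (log2FC = 0.56, SE 0.069, edgeR FDR = 2.56e-05). Mrps2 had 56.9, 56.9 and 54.3 CPM in Dek-silenced libraries, against 40.6, 38.4 and 41.3 CPM in scrambled libraries (log2FC = 0.47, SE 0.064, edgeR FDR = 6.87e-05). Mrps11 and Mrps2, counterparts of the bacterial proteins S11 and S2, thus separated fully from the scrambled libraries, with the Dek-silenced libraries close to each other. The other small-subunit genes that rose were Mrps23 (log2FC = 0.45), Mrps12 (0.37; a counterpart of S12, at the decoding site), Mrps6 (0.35), Mrps24 (0.30) and Mrps17 (0.28). Mrps12 and Mrps24 lost their call when any of several single libraries was left out. Mrps12 had 30.7, 43.4 and 46.01 CPM in Dek-silenced libraries against 29.9, 32.1 and 30.1 CPM in scrambled libraries, so that its first Dek-silenced library lay among the scrambled ones.

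The 3 steepest falls of all members were in the small subunit. Mrps9 had 16.95, 15.4 and 18.7 CPM in Dek-silenced libraries, against 33.03, 30.7 and 29.8 CPM in scrambled libraries (log2FC = −0.89, SE 0.093, edgeR FDR = 7.61e-06). Mrps9, a counterpart of bacterial S9, was far below the scrambled range in each Dek-silenced library. Mrps5 had 27.03, 26.1 and 24.2 CPM in Dek-silenced libraries, against 41.4, 42.8 and 41.5 CPM in scrambled libraries (log2FC = −0.72, SE 0.073, edgeR FDR = 6.33e-06). Mrps7 had 38.4, 40.2 and 47.02 CPM in Dek-silenced libraries, against 62.2, 63.4 and 64.2 CPM in scrambled libraries (log2FC = −0.61, SE 0.081, edgeR FDR = 5.15e-05). Mrps33 had 57.1, 51.9 and 55.5 CPM in Dek-silenced libraries, against 77.6, 77.6 and 81.5 CPM in scrambled libraries (log2FC = −0.54, SE 0.061, edgeR FDR = 1.38e-05). Mrps5 and Mrps7 are counterparts of S5 and S7, and Mrps33 is specific to mitochondria. All 3 Dek-silenced libraries lay below all 3 scrambled libraries for each of them. Exons of Mrps7 overlap Gga3 (log2FC = −0.18) and Mif4gd (log2FC = 0.95) on the other strand, of which the first fell and the second rose. Mrps18b (−0.36) and Mrps27 (−0.20) also fell, and Mrps27 lost its call when any of 4 single libraries was left out. Mrps36, the dehydrogenase protein, fell as well (log2FC = −0.34, SE 0.081, edgeR FDR = 0.00394).

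In the large subunit 12 of 51 genes rose and 12 fell, against 26.2% and 28.5% of all genes tested, with a median log2FC of 0.016. Mrpl36 had 31.4, 38.96 and 41.1 CPM in Dek-silenced libraries, against 25.03, 27.2 and 22.9 CPM in scrambled libraries (log2FC = 0.56, SE 0.11, edgeR FDR = 0.00114). Mrpl10 had 99.9, 103 and 107 CPM in Dek-silenced libraries, against 71.2, 70.5 and 70.5 CPM in scrambled libraries (log2FC = 0.53, SE 0.056, edgeR FDR = 7.63e-06). Mrpl10 is a counterpart of L10, which anchors the stalk that recruits translation factors, and Mrpl36 is a counterpart of the small zinc-binding protein L36. For both genes every Dek-silenced library was above every scrambled library, with the tighter groups in Mrpl10. Mrpl34 had 37.2, 40.5 and 44.7 CPM in Dek-silenced libraries, against 27.98, 28.2 and 28.6 CPM in scrambled libraries (log2FC = 0.52, SE 0.084, edgeR FDR = 0.000252). Mrpl57 had 24.6, 35.2 and 35.1 CPM in Dek-silenced libraries, against 21.3, 22.8 and 22.1 CPM in scrambled libraries (log2FC = 0.51, SE 0.13, edgeR FDR = 0.00761). Mrps18a had 123, 116 and 117 CPM in Dek-silenced libraries, against 90.4, 81.2 and 82.1 CPM in scrambled libraries (log2FC = 0.47, SE 0.059, edgeR FDR = 3.28e-05). Mrpl34 (a counterpart of L34), Mrpl57 (mL63) and Mrps18a again had no overlap between the groups, but the first Dek-silenced library of Mrpl57 stood only a little above the scrambled range. Exons of Mrpl36 overlap Ndufs6, which was not called (log2FC = 0.055), and exons of Mrps11 overlap those of Mrpl46, another member (log2FC = 0.19, edgeR FDR = 0.0554). The other rises were Mrpl18 (log2FC = 0.44), Mrpl17 (0.41), Mrpl49 (0.38), Mrpl9 (0.33), Mrpl55 (0.28), Mrpl20 (0.21) and Mrpl39 (0.18). Not all of the smaller rises were firm. Of the 20 rises of both subunits, 16 kept their call whichever library was left out, and 15 with offsets for GC content and length. Of the 19 falls, these were 12 and 18. Mrpl17 had 55.9, 61.4 and 74.4 CPM in Dek-silenced libraries against 49.5, 48.6 and 44.6 CPM in scrambled libraries.

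Among the large-subunit genes that fell, Mrpl32 encodes a precursor that the m-AAA protease of the inner membrane cleaves before the protein joins the ribosome, and Mrpl11 a counterpart of L11 at the site where elongation factors bind. Mrpl32 had 18.5, 18.04 and 20.9 CPM in Dek-silenced libraries, against 28.1, 26.8 and 28.7 CPM in scrambled libraries (log2FC = −0.55, SE 0.087, edgeR FDR = 0.000207). Mrpl11 had 41.8, 38.96 and 47.1 CPM in Dek-silenced libraries, against 57.8, 63.9 and 61.6 CPM in scrambled libraries (log2FC = −0.53, SE 0.081, edgeR FDR = 0.000147). Both were lower in all 3 Dek-silenced libraries than in any scrambled library. Mrpl21 had 43.4, 34.4 and 40.1 CPM in Dek-silenced libraries, against 51.1, 51.4 and 52.5 CPM in scrambled libraries (log2FC = −0.41, SE 0.083, edgeR FDR = 0.00125). Mrpl51 had 47.7, 45.7 and 54.7 CPM in Dek-silenced libraries, against 62.7, 65.8 and 61.2 CPM in scrambled libraries (log2FC = −0.37, SE 0.077, edgeR FDR = 0.00153). Mrpl21, a counterpart of L21, and the mitochondria-specific Mrpl51 fell without overlap as well. The exons of Mrpl21 overlap those of Ighmbp2 on the other strand, which rose (log2FC = 0.43, edgeR FDR = 0.00137). The remaining falls were smaller, with a log2FC of −0.34 for Mrpl54 and Mrpl28, −0.32 for Mrpl38 and Mrpl1, −0.23 for Mrpl23 and Mrpl50, −0.22 for Mrpl14 and −0.18 for Mrpl42. Of these, Mrpl1, Mrpl14, Mrpl23, Mrpl38, Mrpl42 and Mrpl54 lost their call without the second Dek-silenced library.

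**Figure D3:**
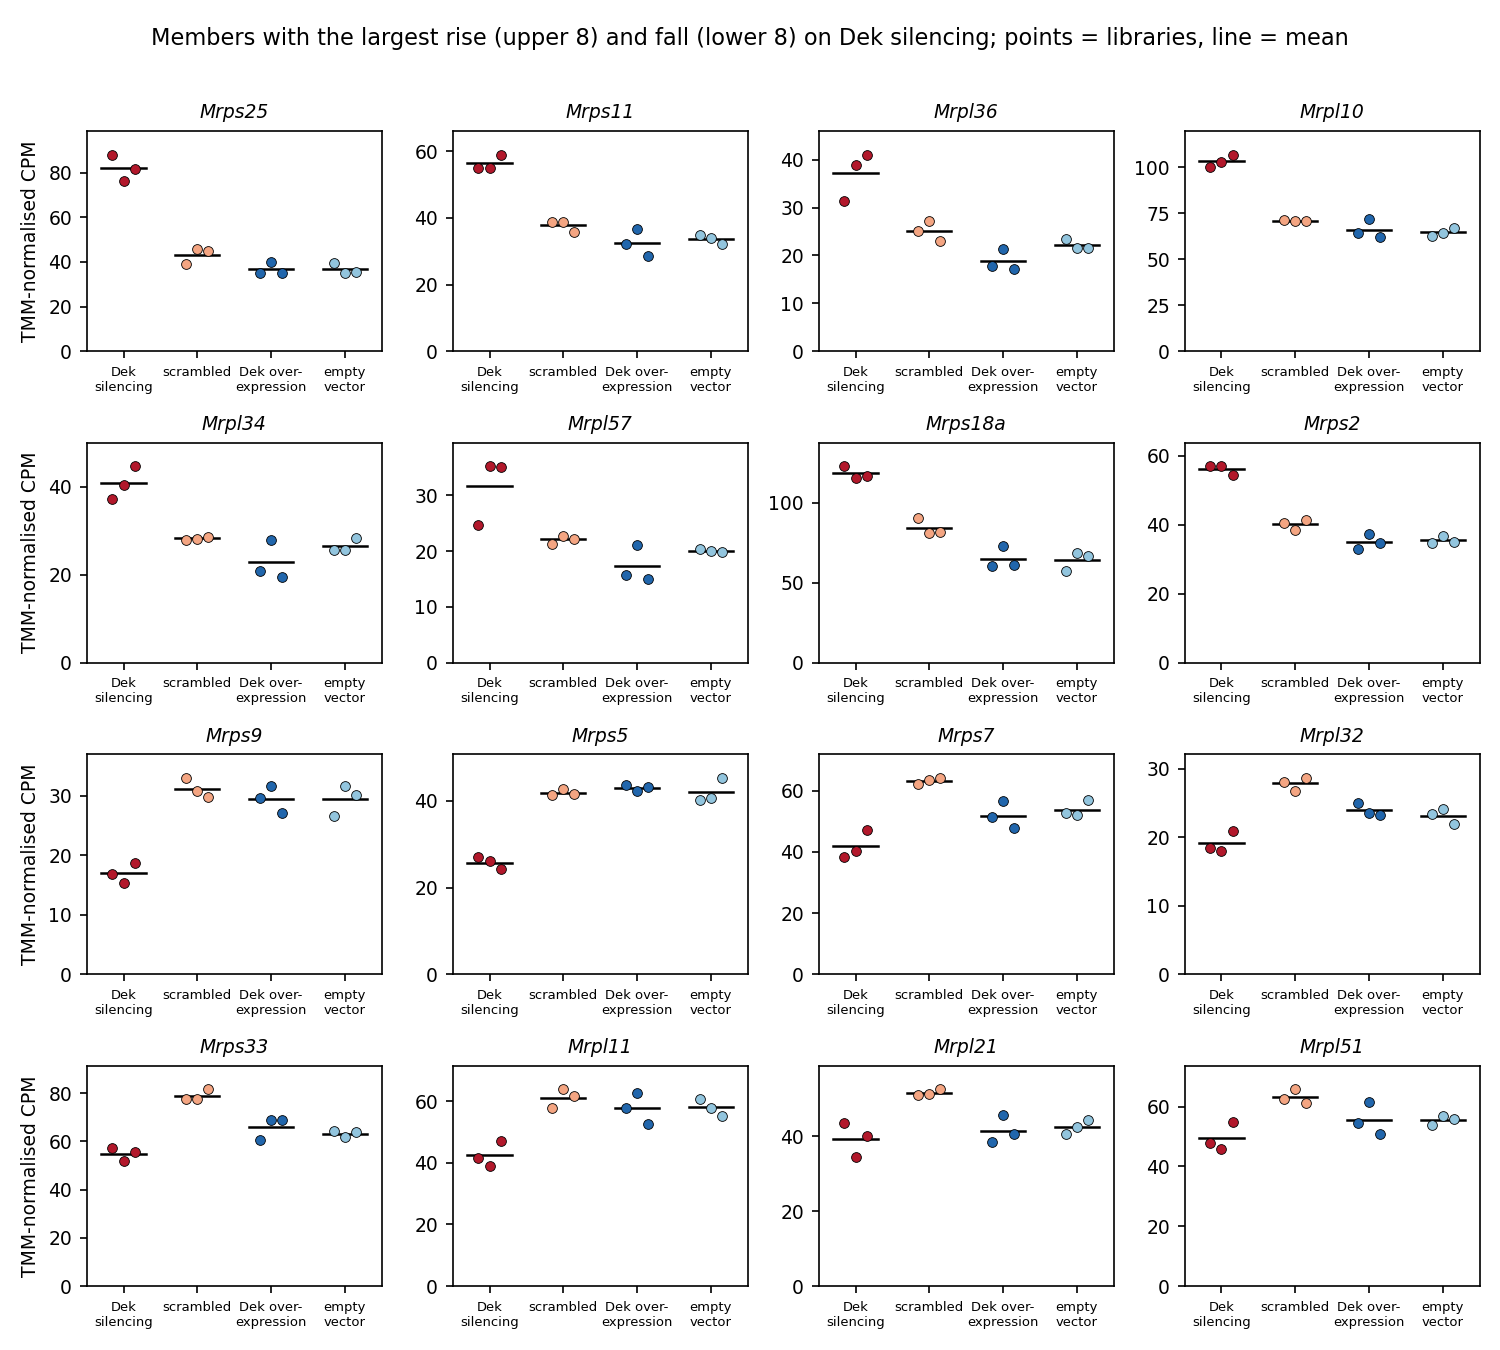
CPM of the 8 members with the largest rise (upper panels) and the 8 with the largest fall (lower panels) on Dek silencing. Each point is a library and each line a group mean, with Dek silencing, scrambled, Dek overexpression and empty vector from left to right and the axis starting at 0. Mrps25 stands at 76.5 to 88.2 CPM in the Dek-silenced libraries and at 39.0 to 45.8 CPM in the scrambled ones, whereas Mrps9 stands at 15.4 to 18.7 CPM in the Dek-silenced libraries and at 29.8 to 33.0 CPM in the scrambled ones. The overexpression and empty vector points overlap except in Mrpl36, where the overexpression points (17.2 to 21.4 CPM) lie below the empty vector points (21.5 to 23.5 CPM).

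Both directions were found in both classes of protein, as over all genes tested (26.2% higher and 28.5% lower), and the counts are to be read beside these shares. Of the 46 members with a bacterial counterpart, 14 rose and 10 fell, and of the 31 mitochondria-specific ones, 6 rose and 8 fell, with median log2FC of 0.028 and 0.043. Mrpl10 rose, while Mrpl12, which binds it in the stalk, had 106, 103 and 124 CPM in Dek-silenced libraries against 113, 104 and 105 CPM in scrambled libraries and was not called (log2FC = 0.040, SE 0.073). The summed level of all members was 3657, 3582 and 3868 CPM in Dek-silenced libraries (3702 ± 148, SD, n = 3) against 3558, 3532 and 3481 CPM in scrambled libraries (3524 ± 39.3). The 2 ranges lay next to each other without overlap, and the difference of the means was of the size of the spread between Dek-silenced libraries. Small-subunit genes summed to 1124 ± 39.2 CPM in Dek-silenced cultures and 1062 ± 6.81 CPM in scrambled cultures, and large-subunit genes to 2536 ± 107 CPM in Dek-silenced cultures and 2409 ± 34.5 CPM in scrambled cultures. Neighbouring genes moved to both sides. Of 22 head-to-head neighbours that were tested, 10 had the sign of the member. Of 24 pairs with overlapping exons, 13 did, where the overlap of Mrps11 and Mrpl46 is counted from each of these members. The heptamer AAGAGGA, which is part of the Dek sequence that the silencing hairpin is built on, occurs in the 3′ untranslated region of 9 members (11.5%, against 14.3% of 19846 genes), of which 2 rose and 2 fell. Off-target pairing of the hairpin was not tested, and this count does not stand for such a test.

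Promoters were set beside these results because NRF1, GABP and YY1, regulators of mitochondrial biogenesis, and the promoter factor ZNF143 bind known short motifs. RefSeq windows of 250 bases before to 50 bases after the start (GRCm38.p6) were at hand for 69 members, and 4 motifs were searched on both strands; none of the 4 contains another. The ETS motif bound by GABP (CCGGAAG) occurred in 26 of 69 members (37.7%), against 18.6% of the 11294 tested genes with a window and 8.9% of all 32851 windows. The YY1 motif (AAGATGGC) occurred in 12 members (17.4%), against 4.9% of those genes and 2.7% of windows. The palindromic NRF1 motif occurred in 3 members (4.3%, against 2.2% and 1.0%) and the ZNF143 motif (ACTACAA) in 5 (7.2%, against 4.6% and 3.2%). With silencing the motifs stood on both sides: the ETS motif was in 7 of the 20 members with a window that rose, 5 of 17 that fell and 14 of 32 not called, and the YY1 motif in 6 of 20, 4 of 17 and 2 of 32. A match to these letters is a description and not evidence of binding. The 4 windows below were chosen after the values were seen, as the called members with the largest rise and the largest fall among those with a YY1 motif (Mrps11, Mrps7) and among the rest with an ETS motif (Mrpl34, Mrps33). They are written 5′ to 3′ on the strand of the gene, with matches in capitals. Mrps11 (chr7:78782881-78783180, plus strand) has a YY1 match on the opposite strand that starts 107 bases before the start, and Mrps7 (chr11:115603890-115604189, plus strand) one on its own strand 18 bases after it. Mrpl34 (chr8:71464676-71464975, plus strand) has an ETS match 37 bases and a ZNF143 match 203 bases before the start, and Mrps33 (chr6:39810887-39811186, minus strand) an ETS match on the opposite strand 38 bases after it.
Mrps11 (rose): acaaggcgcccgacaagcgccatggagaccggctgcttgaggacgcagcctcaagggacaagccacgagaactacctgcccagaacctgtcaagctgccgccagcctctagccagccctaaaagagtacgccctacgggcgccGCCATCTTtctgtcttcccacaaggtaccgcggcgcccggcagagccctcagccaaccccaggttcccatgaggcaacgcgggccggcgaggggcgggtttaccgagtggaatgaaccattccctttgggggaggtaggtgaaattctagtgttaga
Mrps7 (fell): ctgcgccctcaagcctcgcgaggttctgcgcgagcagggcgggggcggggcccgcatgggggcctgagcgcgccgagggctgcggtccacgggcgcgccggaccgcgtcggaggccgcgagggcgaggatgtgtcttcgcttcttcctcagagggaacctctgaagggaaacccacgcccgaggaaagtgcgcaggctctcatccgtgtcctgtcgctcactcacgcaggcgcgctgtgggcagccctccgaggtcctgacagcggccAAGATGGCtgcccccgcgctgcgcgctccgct
Mrpl34 (rose): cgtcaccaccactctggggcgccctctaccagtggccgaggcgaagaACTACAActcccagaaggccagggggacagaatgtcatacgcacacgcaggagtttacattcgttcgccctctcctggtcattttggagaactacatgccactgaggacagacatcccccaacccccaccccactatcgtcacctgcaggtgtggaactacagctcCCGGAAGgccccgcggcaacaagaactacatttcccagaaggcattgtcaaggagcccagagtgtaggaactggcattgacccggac
Mrps33 (fell): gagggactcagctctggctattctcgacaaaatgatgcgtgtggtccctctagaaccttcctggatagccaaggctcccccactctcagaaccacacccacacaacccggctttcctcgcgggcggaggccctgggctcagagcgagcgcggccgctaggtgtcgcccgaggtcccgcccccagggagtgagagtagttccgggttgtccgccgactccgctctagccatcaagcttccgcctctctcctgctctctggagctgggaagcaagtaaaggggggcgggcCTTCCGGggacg

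The second comparison asked what gain of Dek does. With Dek overexpression no member passed the test in either direction, against 0.0071% of 14089 genes called higher and 0% called lower, and the range of log2FC was −0.26 to 0.16 with a median of −0.0185. At an unadjusted p below 0.05 edgeR gave 1 member higher and 1 lower, limma-voom the same, and DESeq2 none higher and 1 lower, against 2.92% and 3.68% of genes in edgeR, and none of the 3 called a member after adjustment. Groups did not overlap for 2 members upwards and 4 downwards, against 5.91% and 5.76% of genes. Mrpl36 had 17.8, 21.4 and 17.2 CPM in Dek-overexpressing libraries, against 23.5, 21.5 and 21.6 CPM in empty vector libraries (log2FC = −0.24, SE 0.098, edgeR FDR = 0.714). Mrpl33 had 53.4, 58.2 and 53.8 CPM in Dek-overexpressing libraries, against 46.5, 53.04 and 49.4 CPM in empty vector libraries (log2FC = 0.16, SE 0.07, edgeR FDR = 0.743). Mrpl36 was thus lower in each Dek-overexpressing library than in any empty vector library, although by little, and Mrpl33 was higher in each of them. Mrpl23 had 32.2, 37.01 and 36.9 CPM in Dek-overexpressing libraries, against 31.4, 32.4 and 31.3 CPM in empty vector libraries (log2FC = 0.16, SE 0.077, edgeR FDR = 0.766). Mrpl17 had 38.8, 43.9 and 35.7 CPM in Dek-overexpressing libraries, against 44.04, 43.3 and 44.3 CPM in empty vector libraries (log2FC = −0.15, SE 0.08, edgeR FDR = 0.793). Mrps16 had 24.2, 27 and 24.8 CPM in Dek-overexpressing libraries, against 26.9, 27.4 and 30.3 CPM in empty vector libraries (log2FC = −0.15, SE 0.082, edgeR FDR = 0.794). Of these, Mrpl23 (a counterpart of L23, at the exit of the peptide tunnel) overlapped only with its first Dek-overexpressing library and has a named pseudogene that could share its reads, and the second Dek-overexpressing library was the highest of its group for each of the 3 genes. The summed member level was 2925, 3273 and 2825 CPM in Dek-overexpressing libraries (3008 ± 235, SD, n = 3) against 2981, 3053 and 3089 CPM in empty vector libraries (3041 ± 54.8), with full overlap. Without the second Dek-overexpressing library, 18 of 78 members were lower at an unadjusted p below 0.05, against 7.8% of 14248 genes in the same fit, and the median log2FC was −0.077 beside 0.0044 over all genes, but still none passed after adjustment. The omitted library was the highest of its group for 65 of 78 members. Leaving it out thus lowers their group means by construction, and no conclusion about Dek is drawn from this fit.

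The difference between the responses was tested directly, as the silencing response minus the overexpression response in a fit of all libraries. It was called positive for 20 members and negative for 16, against 20.4% and 22.7% of 14604 genes, with a median of 0.091. For Mrps25 the silencing response was 0.91 and the overexpression response 0.0011 on the log2 scale (difference = 0.93, SE 0.12, edgeR FDR = 3.7e-06). For Mrpl36 the silencing response was 0.56 and the overexpression response −0.24 on the log2 scale (difference = 0.81, SE 0.15, edgeR FDR = 0.000279). For Mrpl34 the silencing response was 0.52 and the overexpression response −0.22 on the log2 scale (difference = 0.75, SE 0.15, edgeR FDR = 0.000697). In these 3 genes silencing went upwards, and the overexpression estimate was near 0 for Mrps25 and below 0 for the others. For Mrps9 the silencing response was −0.89 and the overexpression response 0.0045 on the log2 scale (difference = −0.88, SE 0.13, edgeR FDR = 2.71e-05). For Mrps5 the silencing response was −0.72 and the overexpression response 0.037 on the log2 scale (difference = −0.74, SE 0.097, edgeR FDR = 7.47e-06). For Mrps33 the silencing response was −0.54 and the overexpression response 0.065 on the log2 scale (difference = −0.59, SE 0.089, edgeR FDR = 3.55e-05). These 3 genes fell with silencing and had overexpression estimates of 0.065 or less, none of them called. The calls of these 6 genes held in all 20 alternatives, whereas the totals moved to 18 and 9 without the second Dek-silenced library, to 13 and 15 without the first Dek-overexpressing library, and to 27 and 8 with library size alone. After correction for GC content and length they were 19 and 21.

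The controls of the arms were also compared with each other, since they carry different viruses. Scrambled cultures had higher levels of most members than empty vector cultures: 48 of 78 were higher and 1 (Mrps17) was lower, against 21.3% and 21.8% of 14096 genes, with a median log2FC of 0.20 beside 0.010 over all genes. All 3 scrambled libraries were above all 3 empty vector libraries for 57 members, against 26.9% of genes, and below them for 1 (26.5% of genes). Mrpl20 had 104, 103 and 104 CPM in scrambled libraries, against 73.2, 80.8 and 76.8 CPM in empty vector libraries (log2FC = 0.43, SE 0.05, edgeR FDR = 1.79e-05). Mrpl33 had 67.5, 69.04 and 62.8 CPM in scrambled libraries, against 46.5, 53.04 and 49.4 CPM in empty vector libraries (log2FC = 0.42, SE 0.063, edgeR FDR = 0.000143). Mrps33 had 77.6, 77.6 and 81.5 CPM in scrambled libraries, against 64.2, 61.8 and 63.7 CPM in empty vector libraries (log2FC = 0.32, SE 0.05, edgeR FDR = 0.00022). These genes of both subunits were thus higher in every scrambled library. Mrps17 had 42.1, 41.5 and 42.4 CPM in scrambled libraries, against 46.1, 47.1 and 48.6 CPM in empty vector libraries (log2FC = −0.17, SE 0.056, edgeR FDR = 0.0243). The scrambled libraries of Mrps17 were all lower. The count rested on the processing: with offsets for GC content and transcript length 18 members were higher and 3 lower, 13 of the 48 kept their call, and the median log2FC was 0.079. No fold change beyond 1.5 was called. Promoter and hairpin, virus and the cultures themselves differ together between these groups and cannot be told apart. GABAergic markers moved with the result, with a sum of 2254 to 2405 CPM in scrambled libraries against 1834 to 1900 CPM in empty vector libraries and 3 of 3 called higher, and excitatory markers summed to 232 to 271 CPM in scrambled libraries against 355 to 383 CPM in empty vector libraries, with 2 of 4 called lower. Astrocyte markers summed to 275 to 488 CPM in scrambled libraries against 208 to 274 CPM in empty vector libraries, with 2 of 6 called higher. Microglial markers summed to 4.77 to 6.99 CPM in scrambled libraries against 9.44 to 10.1 CPM in empty vector libraries, and the 1 tested was called lower. Fibroblast markers summed to 8.68 to 10.8 CPM in scrambled libraries against 11.7 to 16.1 CPM in empty vector libraries, with 2 of 4 called lower. The part of these cell types in the members' difference was not tested.

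Set against the empty vector in place of the scrambled control, the Dek-silenced cultures had 44 members higher and 9 lower, against 34% and 33.5% of 14292 genes, with a median log2FC of 0.26. Without overlap 47 members were higher and 9 lower, against 35.6% and 35.4% of genes. Markers of cell types moved in the same comparison. GABAergic markers summed to 2210.2 to 2573 CPM in Dek-silenced libraries against 1834 to 1900 CPM in empty vector libraries (2 of 3 called higher), and the 8 neuronal markers to 5655 to 6205 CPM in Dek-silenced libraries against 6659 to 6980 CPM in empty vector libraries (2 called higher and 4 lower). Astrocyte markers summed to 273 to 545 CPM in Dek-silenced libraries against 208 to 274 CPM in empty vector libraries (2 of 6 higher). Microglial markers summed to 3.54 to 4.47 CPM in Dek-silenced libraries against 9.44 to 10.1 CPM in empty vector libraries (of 2 tested, 1 higher and 1 lower). Fibroblast markers summed to 8.56 to 12.1 CPM in Dek-silenced libraries against 11.7 to 16.1 CPM in empty vector libraries (1 of 4 lower). Oligodendrocyte markers summed to 82.4 to 89.8 CPM in Dek-silenced libraries against 44.6 to 45.6 CPM in empty vector libraries (3 of 5 higher and 1 lower), and precursor markers to 92.5 to 199 CPM in Dek-silenced libraries against 52.1 to 82.5 CPM in empty vector libraries (2 of 5 higher). Their part in the members' difference was not tested. This comparison shares its Dek-silenced libraries with the first. Of the members described above, the rises had log2FC of 1.16 against the empty vector and 0.91 against scrambled for Mrps25, 0.88 and 0.47 for Mrps18a, 0.75 and 0.56 for Mrps11, 0.75 and 0.56 for Mrpl36, and 0.68 and 0.53 for Mrpl10. The falls were −0.79 and −0.89 for Mrps9, −0.70 and −0.72 for Mrps5, −0.36 and −0.61 for Mrps7, −0.44 and −0.53 for Mrpl11, −0.27 and −0.55 for Mrpl32, and −0.21 and −0.54 for Mrps33. Of the 19 members called lower against scrambled, 9 were also called lower against the empty vector and 10 were not called. Mrpl21 (−0.11) and Mrpl51 (−0.17) were among the 10. Mrpl54 (0.18), Mrps27 (0.10) and Mrpl14 (0.050) had the opposite sign against the empty vector, without a call. Of the 19 falls, 12 were in members called higher in scrambled than in empty vector cultures. So were 12 of the 20 rises and 24 members not called. Over all 78 members it was 48 (61.5%), so the falls stood close to the share of the members as a whole. Of the 20 rises, 19 were also called against the empty vector and 1 was not. The genes at both ends kept their sign with either control. With the correction for GC content and length, 31 were higher and 20 lower.

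Other genes of mitochondrial gene expression were also called in both directions with Dek silencing, as were genes at large. Over all 14232 genes tested, 26.2% were called higher and 28.5% lower, and the counts below are to be read beside these shares. Of 5 mitoribosome proteins with other symbols, Gadd45gip1 (a large-subunit protein also known as CRIF1) fell and Ptcd3 (a small-subunit protein that binds RNA) rose. Gadd45gip1 had 19.4, 19.7 and 24.7 CPM in Dek-silenced libraries, against 28.7, 33.4 and 33.4 CPM in scrambled libraries (log2FC = −0.59, SE 0.11, edgeR FDR = 0.00069). Ptcd3 had 72.3, 72.4 and 67.4 CPM in Dek-silenced libraries, against 64.02, 61.1 and 61.2 CPM in scrambled libraries (log2FC = 0.17, SE 0.059, edgeR FDR = 0.0268). The groups of both genes did not overlap. Dap3 (log2FC = −0.032), Chchd1 (−0.15) and Aurkaip1 (0.19) were not called. Among 28 factors of mitoribosome assembly and rRNA modification, 8 rose (28.6%) and 8 fell (28.6%), close to those shares, with a median log2FC of 0.050. Trub2 had 66.4, 62.5 and 60.05 CPM in Dek-silenced libraries, against 30.6, 30.8 and 33.9 CPM in scrambled libraries (log2FC = 0.97, SE 0.071, edgeR FDR = 3.81e-07). Trub2, a pseudouridine synthase of mitochondrial RNA, was far higher in every Dek-silenced library, and the genes grouped with it in human cells as an RNA-modifying module were mixed, as Ngrn (0.54), Rpusd3 (0.96) and Rpusd4 (0.29) rose, Fastkd2 fell (−0.33) and Rcc1l was not called (−0.0094). The helicase Dhx30 (−0.44), Rbfa (−0.54), Mtg1 (−0.43) and the rRNA methyltransferase Mettl15 (−0.75) fell. Of 18 translation factors and mRNA regulators 5 rose (27.8%) and 4 fell (22.2%). Lrpprc had 79.6, 74.3 and 76.2 CPM in Dek-silenced libraries, against 134, 134 and 128 CPM in scrambled libraries (log2FC = −0.80, SE 0.054, edgeR FDR = 2.09e-07). Lrpprc stabilises mitochondrial mRNAs, and its Dek-silenced libraries lay far below the scrambled ones. Mrrf, the ribosome recycling factor, fell (−0.74), and Oxa1l, which inserts new proteins into the inner membrane, rose (0.33).

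Of 20 genes of mitochondrial aminoacyl-tRNA synthesis 3 rose (15%) and 4 fell (20%), among them Gatb (0.42) upwards and Aars2 (−0.53) downwards. The shares over all genes were 26.2% higher and 28.5% lower. Of 17 genes of mitochondrial DNA maintenance and transcription 5 rose (29.4%) and 7 fell (41.2%). Rnaseh1 (−1.02), Mgme1 (−1.16), Tfb2m (−0.67) and Atad3a (−0.36) were among those that fell, and Lonp1 (0.37), Polg2 (1.05), Tfam (0.29), which packages mitochondrial DNA, and Polg (0.29) among those that rose. Of 9 regulators of mitochondrial biogenesis, Esrra (0.55), Gabpb1 (0.60) and Gabpb2 (0.82) rose, and Pprc1 (−0.46) and Ppargc1b (−1.24) fell. Gabpa (−0.25), Yy1 (0.060), Nrf1 (−0.056) and Ppargc1a (0.0011) were not called. With Dek overexpression no gene of these lists was called. The mRNAs encoded in the mitochondrial genome were not analysed here.

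The members were set beside the closest larger groups, the cytosolic ribosomal proteins and the nuclear-encoded subunits of the respiratory chain and ATP synthase. With Dek silencing 4 of 82 tested cytosolic ribosomal proteins were higher and 34 lower (median log2FC −0.11), with Rpl21 (−0.78), Rplp0 (−0.77) and Rpl28 (−0.82) among the falls. These were 4.88% and 41.5% of the list, against 26.2% and 28.5% of all genes tested. Of 76 nuclear-encoded respiratory chain subunits 5 were higher (6.58%) and 20 lower (26.3%; median −0.050), with Ndufv2 (−1.05) and Atp5f1 (−0.86) among the falls. With library size alone the counts were 12 higher and 19 lower for cytosolic ribosomal proteins and 10 higher and 12 lower for respiratory chain subunits, and with offsets for GC content and length 2 and 51, and 3 and 36. The share over all genes in the same fits is not given beside these counts. They show that the counts move with the processing and are not read as a result about the lists. Cytosolic ribosomal proteins summed to 25003 to 27706 CPM in Dek-silenced libraries against 28383 to 29388 CPM in scrambled libraries, which did not overlap, whereas the summed members were higher in Dek-silenced libraries. In scrambled against empty vector cultures all 3 groups went the same way, with 65 of 81 cytosolic ribosomal proteins (median 0.22) and 70 of 76 respiratory chain subunits (median 0.34) higher and none lower. Over all genes tested there, 21.3% were higher and 21.8% lower. After correction for GC content and length these were 12 higher and 16 lower for cytosolic ribosomal proteins and 37 higher and 0 lower for respiratory chain subunits. The share over all genes after that correction is again not given, and the same limit holds. Whether one group differs from another was not tested.

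**Figure D4:**
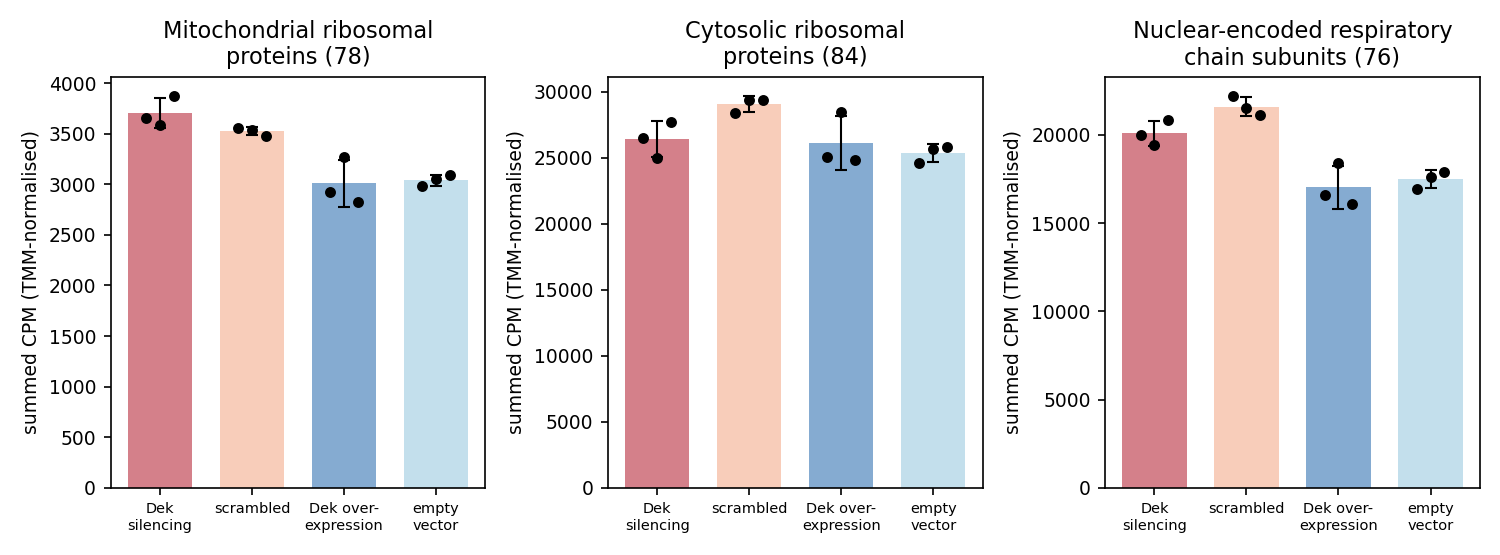
Summed CPM of 78 mitochondrial ribosomal proteins, 84 cytosolic ribosomal proteins and 76 nuclear-encoded respiratory chain subunits. Bars are group means from 0, error bars the SD and points the 3 libraries of each group. The members stand at 3702 ± 148 CPM with Dek silencing, 3524 ± 39.3 with scrambled, 3008 ± 235 with Dek overexpression and 3041 ± 54.8 with empty vector.

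**Figure D5:**
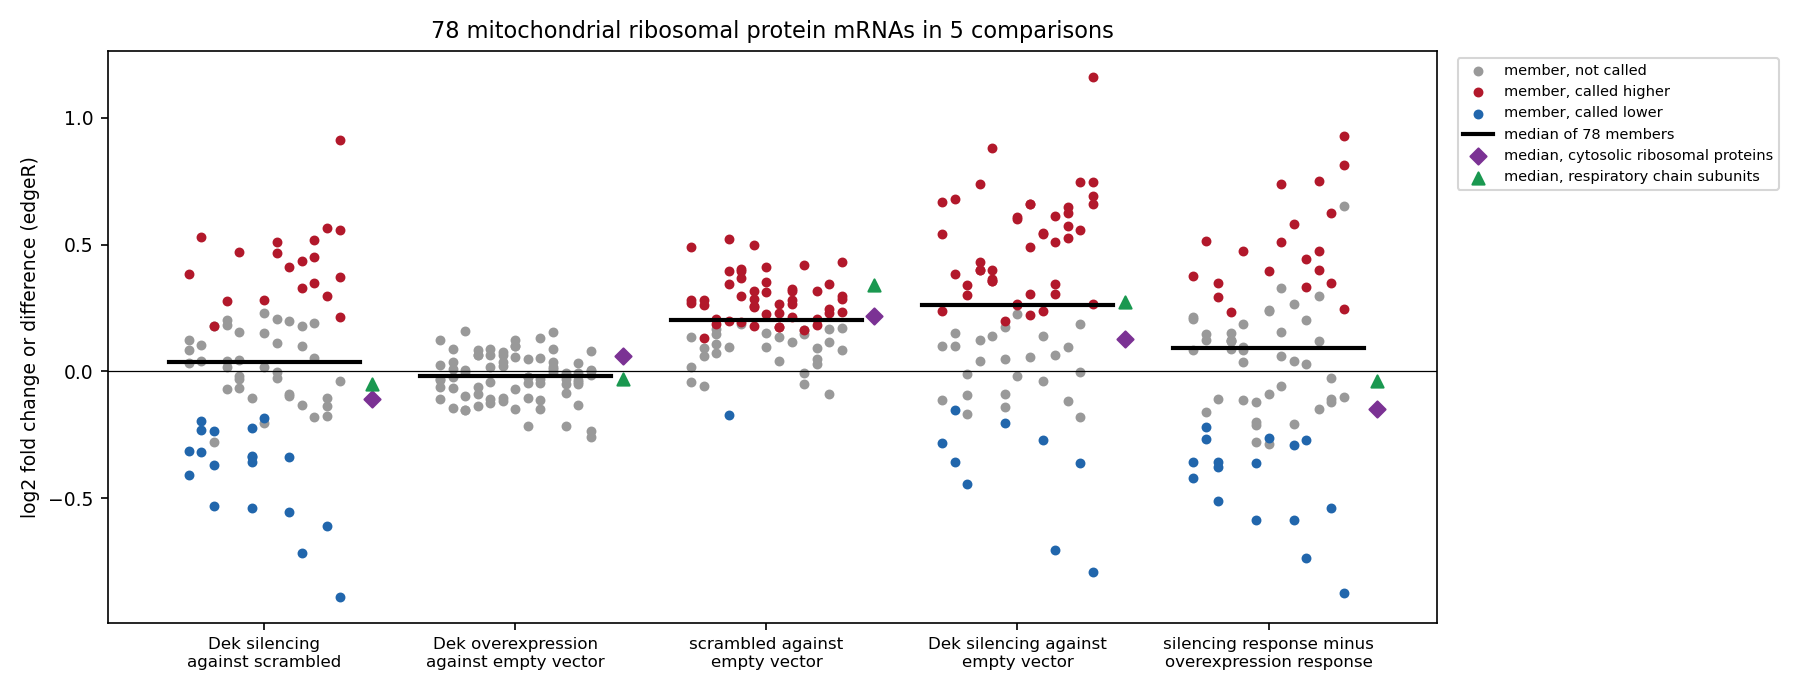
log2 fold change (or difference of responses) of the 78 members in 5 comparisons, each point a member, in red where called higher, blue where called lower and grey where not called. Black lines are the members' medians (0.036, −0.0185, 0.20, 0.26 and 0.091 from left to right), purple diamonds the medians of cytosolic ribosomal proteins and green triangles those of respiratory chain subunits. Points spread to both sides in the silencing comparison, stay grey with overexpression and lie mostly above 0 between the controls.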

How the data were processed

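RNA of 12 bulk libraries, 3 in each of 4 groups, was sequenced after TruSeq preparation. The authors deposited estimated counts per gene, and the submitters' processing notes name Salmon, DESeq2 and the mouse build mm10; replicates were not pooled. Since 38.6% of values were not whole, the estimated counts were rounded. Each library held 15679567 to 18933382 estimated counts. The 78 members were matched by symbol, and the members, gene lists and tests were chosen with earlier results of these data known. Each pair of groups was fitted across all genes with edgeR 4.0.16 (robust quasi-likelihood F test, TMM scaling, filterByExpr, Benjamini-Hochberg adjustment, threshold 0.05) in R 4.3.3, and the difference between responses was tested in a fit of all libraries. Printed CPM use TMM over all 12 libraries, and CPM per kb divide by the length of a representative GENCODE vM21 transcript.

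Values per library are given for the 8 largest rises and 8 largest falls with silencing among called members of at least 5 CPM, the 5 smallest p with overexpression, the 5 highest and 5 lowest members per kb, the 3 largest differences of response in each direction, and for lists up to 4 genes per direction by adjusted p; others were chosen after their values were seen. Alternatives were DESeq2 size factors, library size alone, DESeq2 1.42.0, limma-voom (limma 3.58.1), other filters on low counts, all libraries in one fit, a replicate block, offsets for GC content and transcript length (natural splines with 5 degrees of freedom), a fold change beyond 1.5 and the omission of each library. The scripts were tested on simulated data. For Dek silencing against scrambled, 44.8% of simulated 1.3-fold changes and 89.6% of 2-fold changes were recovered, with 9.47% false at the 0.05 threshold. For Dek overexpression against empty vector these were 61.2%, 83.6% and 4.12%. The silencing value of 9.47% lies above the threshold. Each simulation changed 200 genes, of 14232 and 14089. In the real silencing comparison 3730 genes were called higher and 4060 lower, so these rates need not hold there. Reads that could come from a named pseudogene (Mrpl23, Mrpl48, Mrps36) or an overlapping gene were left as the authors assigned them.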

Additional observations from a re-analysis of the deposited data

How the results depend on the processing

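Counts of called members under the alternatives, here and above, are given as higher and lower. The share over all genes in the same fit is not given beside them. Library size alone also moved the median log2FC of all genes, by 0.099 in silencing against scrambled. The counts are therefore not read as a result about the members. With library size alone they were 33 and 11 for Dek silencing against scrambled, 52 and 5 for Dek silencing against empty vector and 27 and 8 for the difference between responses, and the summed member level averaged 3853 CPM in Dek-silenced cultures and 3459 CPM in scrambled cultures. With a fold change beyond 1.5 they were 1 and 3 for silencing, 0 and 0 for scrambled against empty vector, 16 and 2 for Dek silencing against empty vector and 5 and 4 for the difference. The DESeq2 test gave 39 and 0 for scrambled against empty vector. Correction for GC content and transcript length gave 18 and 3 for scrambled against empty vector and 31 and 20 for Dek silencing against empty vector. It was the only alternative to reverse a sign where the value was called before or after. Of 9 such members in Dek silencing against empty vector, 4 were called without the offsets and 5 only with them. Of 9 in scrambled against empty vector, 8 were called without the offsets and 1 only with them. The log2FC then were −0.41 (Mrpl14), −0.0083 (Mrpl16), −0.24 (Mrpl2), −0.25 (Mrpl37), −0.16 (Mrpl41), −0.043 (Mrpl53), −0.30 (Mrpl54), −0.24 (Mrps15) and −0.14 (Mrps21) in Dek-silenced against empty vector cultures. In scrambled against empty vector cultures they were −0.023 (Mrpl10), −0.069 (Mrpl14), −0.043 (Mrpl23), −0.089 (Mrpl28), −0.012 (Mrpl30), −0.23 (Mrpl34), 0.036 (Mrps17), −0.013 (Mrps24) and −0.058 (Mrps6). The cause was not tested.

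With one library left out, the counts were 16 to 24 and 12 to 20 for silencing against scrambled, 35 to 45 and 0 to 1 for scrambled against empty vector, 41 to 45 and 6 to 11 for Dek silencing against empty vector, and 13 to 25 and 9 to 17 for the difference between responses. With the replicate block they were 25 and 20 for silencing against scrambled, 39 and 0 for scrambled against empty vector, 44 and 7 for Dek silencing against empty vector, 18 and 15 for the difference and 0 and 0 for overexpression. Same-numbered Dek-silenced and scrambled libraries correlated in their deviations at r = 0.304, 0.133 and 0.07, and the second Dek-silenced library did better with the third scrambled library (0.15), so the numbers were not taken as pairs.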
